A study of Mus musculus with 8 samples.

Results

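The lysosome and autophagy genes described here are 49 genes, chosen by name from a list, and all 49 were present among the 11789 genes of the deposited expression table. Of these, 31 encode parts of the lysosome or its supply (enzymes, cofactors, membrane proteins, sorting factors, a transcription factor and proton pump subunits) and 18 encode parts of the autophagy machinery. Strand-specific libraries of total RNA had been made from the pancreas at 6 weeks of age, 8 in all. Wild-type (WT) mice gave 4 of them, and mice homozygous for a floxed Daxx allele (Daxx fl/fl) that carried a Pdx1-Cre transgene (Pdx1-Cre Tg) gave the other 4, called Daxx deleted here. Per the series' design text each genotype held 4 mice, 2 of each sex, so libraries are taken as separate animals, and no label ties a sex to a library. Daxx is a histone chaperone of silent chromatin, and Pdx1 drives Cre in the progenitors of acinar, duct and islet cells, so stromal, vascular and immune cells of the Daxx-deleted organ keep Daxx. The labels describe no mice with Cre alone or floxed alleles alone, and effects of these and of Daxx loss cannot be told apart.

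The lysosome is an acidic organelle in which proteases, glycosidases and lipid enzymes break down cargo. Autophagy encloses cytoplasm or damaged organelles in a double membrane, the autophagosome, which then fuses with the lysosome. Acinar cells of the pancreas make large amounts of digestive enzymes and depend on this route to clear zymogen granules and endoplasmic reticulum. In pancreatitis research the lysosomal proteases have a further role, since cathepsin B can activate trypsinogen and cathepsin L can degrade it. TFEB, encoded by Tfeb, is a transcription factor that drives many lysosomal and autophagy genes through a promoter element whose core reads CACGTG.

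That core was looked for in the RefSeq promoters (GRCm38.p6, 250 bases before to 50 after the start) of the 40 members with an entry. Since CACGTG reads the same on both strands, 1 search covers both. It occurred in at least 1 promoter of 14 of the 40 members (35%), against 8.09% of all 27025 genes with a promoter and 12.5% of the 8285 tested genes with one. By window, 14 of 49 member promoters held it (28.6%), against 7.15% of all 32851. A longer form of the element, the core with GT before it and AC after it, which also reads the same on both strands, was in 0 member promoters and in 0.326% of all. Among lysosomal members with an entry 11 of 25 had the core, and among autophagy members 3 of 15. The Lamp1 promoter held 4 copies, starting 61, 45, 28 and 15 bases before the RefSeq start, and is shown whole because it had the most. The other lines show 1 copy with 12 bases on each side for some of the other members with the core, so that 9 of the 14 are shown. Atg3, Atp6v0d1, Atp6v1a, Gaa and Lgmn also held the core and are not shown. Ctsd, Ctsa, Mcoln1 and Gla each held 2 copies, of which the one nearer the RefSeq start is shown. All are written 5′ to 3′ on the strand of the gene with the core in capitals.
Lamp1 (chr8:13158911-13159210, plus strand): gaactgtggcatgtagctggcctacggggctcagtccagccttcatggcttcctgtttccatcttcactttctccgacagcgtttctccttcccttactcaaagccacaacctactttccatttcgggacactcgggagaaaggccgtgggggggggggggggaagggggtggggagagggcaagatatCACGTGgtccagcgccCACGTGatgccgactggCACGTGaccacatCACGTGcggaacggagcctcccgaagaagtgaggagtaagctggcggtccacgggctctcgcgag
Ctsl (chr13:64370739-64370768, minus strand): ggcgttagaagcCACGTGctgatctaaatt
Ctsd (chr7:142387908-142387937, minus strand): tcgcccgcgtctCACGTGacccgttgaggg
Ctsa (chr2:164833766-164833795, plus strand): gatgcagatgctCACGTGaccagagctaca
Mcoln1 (chr8:3500462-3500491, plus strand): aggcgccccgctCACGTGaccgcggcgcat
Gla (chrX:134601182-134601211, minus strand): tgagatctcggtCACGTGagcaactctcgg
Glb1 (chr9:114401018-114401047, plus strand): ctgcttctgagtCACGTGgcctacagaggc
Atg5 (chr10:44268313-44268342, plus strand): cggagcgcttgcCACGTGgtcttggtgacg
Atg7 (chr6:114670952-114670981, plus strand): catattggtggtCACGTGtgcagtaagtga
A match of these letters is a description of the sequence, and TFEB binding was not measured in this series. In Ctsl the core began 236 bases before the RefSeq start. GENCODE places the 5′ end of Ctsl, Ctsd, Ctsa, Mcoln1 and Atg7 farther upstream than this RefSeq start, so the copies shown for these genes lie inside their GENCODE spans.

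The 8 libraries held 7705789 to 10517508 reads over all listed genes, recovered as whole reads from the deposited normalized counts. Values below are normalized read counts, that is, reads divided by 1 size factor per library, with SD over n = 4 libraries. Members took 0.158, 0.142, 0.159 and 0.154% of reads in wild-type replicates 1 to 4 and 0.169, 0.173, 0.148 and 0.142% in Daxx-deleted replicates 1 to 4, so both genotypes overlapped. The mean share was higher in Daxx-deleted libraries, but the members' summed normalized count was lower, 14479 ± 346 in wild-type and 13703 ± 556 in Daxx-deleted libraries. By that sum Daxx-deleted replicates 1 to 3 (13478, 13512 and 13298) were below every wild-type library, and replicate 4 (14525) was not. Reads per member and library ran from 17 to 1680. As a check of the labels, Daxx was at 39.7, 58.7, 46.7 and 45.2 in the wild-type libraries and 26.8, 23.3, 29.2 and 32.5 in the Daxx-deleted libraries, without overlap (log2 fold change -0.74 ± 0.20 SE, exact two-sided permutation p = 0.0286, the smallest that 4 against 4 can give). Over all genes Daxx did not pass limma's test either (adjusted p = 0.9997). Its mean in Daxx-deleted libraries was 58.8% of the wild-type mean. The extent of recombination and the cells that gave the remaining Daxx reads were not determined. The acinar identity of the tissue showed in all 10 acinar genes of a marker list, whose summed level was 3558540.3 to 4228566 in wild-type and 2950294 to 4232763 in Daxx-deleted libraries. Macrophages are rich in lysosomes and are not recombined by Pdx1-Cre. Of 14 macrophage markers 11 were listed in the table (Aif1, Itgam and Fcgr1 were not), none of the 11 was at 0 in any library, and their summed level was 446 to 692 in wild-type and 362 to 834 in Daxx-deleted libraries. Summed islet markers ran from 2139 to 7743 against 1681 to 7439, and stromal markers from 3145 to 4909 against 3396 to 5565. Gene by gene, 7 of 8 islet markers had a log2 fold change below 0 (median -0.40), as had 8 of 10 acinar markers (median -0.071). Of the tested macrophage markers 5 were above 0 and 5 below, and of the stromal markers 5 and 3. None of these markers passed limma's test. The part of these cell types in the results was not tested. In bulk tissue, fewer cells of a type and less RNA per cell cannot be told apart.

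To compare genes with each other, levels were divided by the length of annotated exon, merged over all annotated transcripts of a gene. This length can exceed that of the transcript in use, which was not determined. It was 1844 bases for Gabarap, 2675 for Lamp1, 6489 for Ctsl and 7517 for Map1lc3b, so ranks and ratios between genes on this scale are approximate. Lamp1, a major glycoprotein of the lysosomal membrane, led the members with 489 ± 60.5 normalized counts per kilobase in wild type against 456 ± 23.7 in Daxx-deleted pancreas. Gabarap, which encodes an autophagosome coat protein of the Atg8 family, followed with 347 ± 38.2 in wild type. The aspartic protease gene Ctsd was next at 291 ± 22.3. Below these came Sqstm1, an autophagy receptor, at 232 ± 22.4, and Psap, the precursor of the saposin cofactors, at 231 ± 14.4, which did not differ beyond their SD. The receptor gene Nbr1 had 170.1 ± 12.5. In wild type Ctsl (158 ± 42.6) and Ctsb (144 ± 15.1) were likewise within their SD of each other. At the low end stood Tfeb (6.52 ± 0.913), the lysosomal calcium channel gene Mcoln1 (6.505 ± 0.685) and the aminopeptidase gene Ctsh (5.65 ± 1.08). The top member was 86.6-fold above the lowest per length, and 14 members were among the 1000 most abundant genes of the 11789 on this scale.

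**Figure D1:**
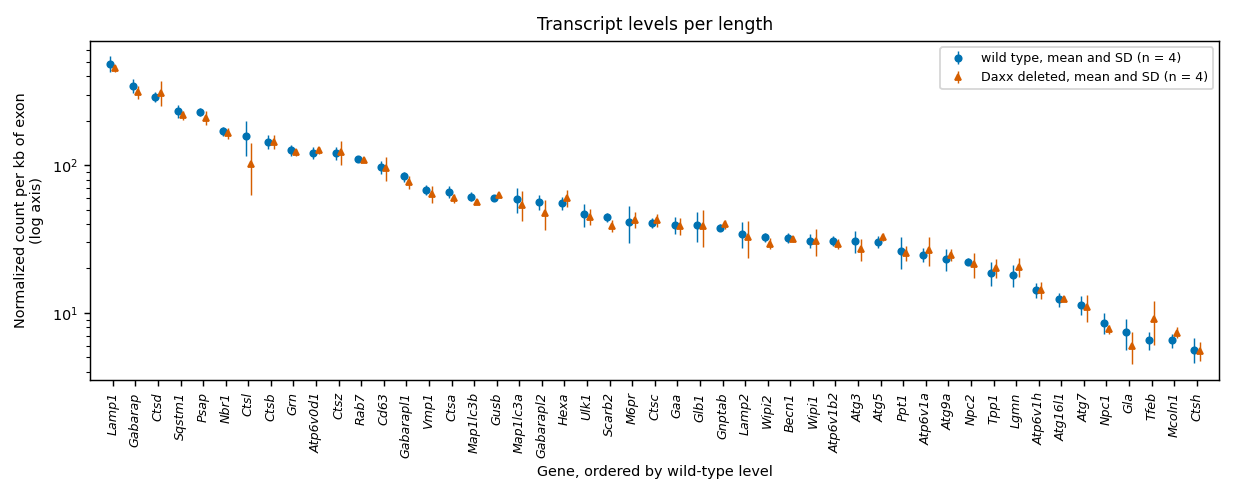
Normalized read counts per kilobase of annotated exon (log axis) for the 49 genes, ordered by the wild-type mean; circles and triangles are means of 4 libraries per genotype and bars are SD. Lamp1, Gabarap and Ctsd lead, Ctsh is lowest, and the widest gaps between genotypes are those of Ctsl and Tfeb, whose bars overlap.

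Between the genotypes the members held close to the same levels. None of the 49 passed limma's test over all 10468 tested genes at an adjusted p under 0.05, and the smallest adjusted p of a member was 0.9997. In that test 0% of all genes passed. At an unadjusted p under 0.05 there was 1 member, Ctsl (2.04%), against 2.88% of all genes (302 genes, 1.32% higher and 1.57% lower). edgeR's quasi-likelihood test and DESeq2 on the recovered reads gave 1 and 0 members at an unadjusted p under 0.05 (2.86% and 2.09% of all genes) and called none of the 49. Which member had an unadjusted p under 0.05 depended on the scaling. With equal library totals it was Tfeb (log2 fold change 0.54, unadjusted limma p of 0.0214), and Ctsl then had 0.0548. DESeq2 gave Ctsl an unadjusted p of 0.0509. Over all genes limma and edgeR called 0 and DESeq2 called 1 (0.00955%), which was not a member. The 4 values of one genotype lay apart from the 4 of the other in 1 member, Map1lc3b, where it was lower in Daxx-deleted pancreas, against 1.87% of all tested genes (0.831% higher and 1.04% lower).

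The 95% intervals of limma, taken gene by gene under the deposited scaling, give the range of differences in bulk tissue that the fit allows. They do not bound a change confined to a minority of the cells. The median 95% interval of a member reached 0.30 log2 units to each side (1.23-fold), against 0.41 for all tested genes (1.33-fold). For 44 of the 49 members the whole interval lay within a 1.5-fold change in either direction, which held for 56.1% of all tested genes. The 5 others were Ctsl, Lgmn, Gla, Tfeb and Gabarapl2, and all but Ctsl lay within a 2-fold change. By sign, 16 members were above 0 and 33 below, with a median log2 fold change of -0.031, beside 48.1% above 0 and a median of -0.0074 over all genes. With equal library totals 37 of 49 were above 0, but so were 74.3% of all genes, whose median that scaling moved to 0.11. Relative to the median of all genes 17 members were higher under either scaling, but 25 were without wild-type replicate 3 and 14 without Daxx-deleted replicate 4.

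**Figure D2:**
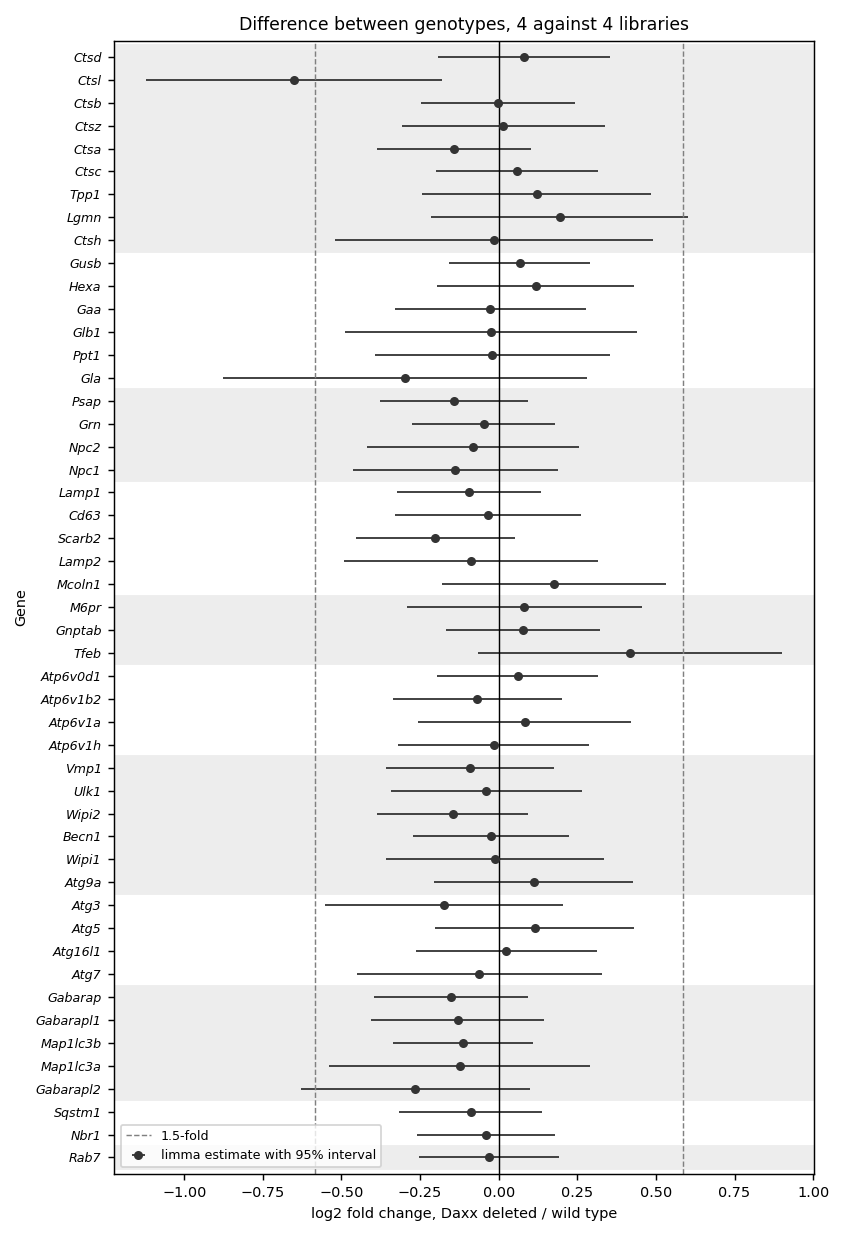
Log2 fold change of each gene between Daxx-deleted and wild-type pancreas (points, limma estimates from 4 against 4 libraries) with 95% intervals; shaded bands separate the role groups and dashed lines mark 1.5-fold. Of 49 intervals 44 lie between the dashed lines, and under the deposited scaling that of Ctsl is the 1 that does not include 0. With equal library totals the interval of Ctsl included 0 and that of Tfeb did not.

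Among the 9 lysosomal proteases, cathepsin L stood apart from the others. Ctsl (ENSMUSG00000021477.9, chromosome 13, 64359337 to 64370890, minus strand, GRCm38) measured 1153, 953, 1316 and 675 in wild-type replicates 1 to 4. In Daxx-deleted replicates 1 to 4 it was at 1037, 527, 568 and 515. Daxx-deleted replicates 2, 3 and 4 were below every wild-type library, while replicate 1 lay within the wild-type range. Limma gave a log2 fold change of -0.65 ± 0.22 (SE), a 95% interval of -1.12 to -0.18, an unadjusted limma p of 0.00986, an adjusted p of 0.9997 and an exact permutation p of 0.0857. With 1 library left out at a time it ran from -0.89 to -0.52. The first was without Daxx-deleted replicate 1, with a limma adjusted p of 0.383. The second was without wild-type replicate 3, with an unadjusted limma p of 0.0407. Robust moderation with all 8 libraries gave an unadjusted limma p of 0.0460. In Daxx-deleted replicates 1 to 4 the summed macrophage level was 505, 834, 552 and 362, and its part in the Ctsl values was not tested. Exons of Ctsl overlap a processed pseudogene on the same strand (Gm49230) and an antisense gene (Gm47123), so the assignment of some reads is uncertain. Exons of other members overlap a gene on the opposite strand, such as Ctsb with Fdft1, Lamp1 with Grtp1 and Sqstm1 with Mrnip. The library kit keeps strand, but whether the counting used it is not given, so reads of such pairs may not be told apart.

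The cysteine protease gene Ctsb, whose product can activate trypsinogen, had nearly equal means in both genotypes. It was at 884, 963, 902 and 746 in wild-type libraries. Daxx-deleted libraries had 739, 883, 938 and 930.2, and both ranges overlapped almost fully. That is a log2 fold change of -0.0018 ± 0.12 (SE) and a 95% interval of -0.25 to 0.24. Per length, the ratio of Ctsb to Ctsl was 0.822, 1.08, 0.735 and 1.19 in wild-type replicates 1 to 4 and 0.764, 1.80, 1.77 and 1.94 in Daxx-deleted replicates 1 to 4. The 3 highest ratios were those of Daxx-deleted replicates 2 to 4, and the lowest but 1 was that of Daxx-deleted replicate 1. On the log2 scale the genotypes differed by 0.65, which the exact two-sided permutation test did not separate (p = 0.114). That ratio rests on the Ctsl values above and is no second observation.

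The other proteases overlapped between genotypes. Ctsd, whose product can activate other cathepsins, was at 615, 742, 695 and 682 in wild-type and 635, 663, 685 and 939.6 in Daxx-deleted libraries, of which replicate 4 was far above the rest. The gene shares exons with a same-strand model, Gm49369. Ctsc, the dipeptidyl peptidase that matures granule proteases, had 259, 218, 237 and 234 in wild-type and 258, 257, 211 and 261 in Daxx-deleted libraries. For Ctsa, a carboxypeptidase that protects lysosomal galactosidase, the values were 312, 296, 286 and 351 in wild type. In Daxx-deleted pancreas they were 269, 284, 265 and 309, with 3 of 4 below the lowest wild-type library (log2 fold change -0.14 ± 0.11 SE, exact permutation p = 0.114). The carboxypeptidase gene Ctsz, the legumain gene Lgmn, Tpp1 of lysosomal tripeptidyl peptidase and Ctsh had log2 fold changes of 0.015, 0.19, 0.12 and -0.016. In all, 5 of the 9 were above 0 and 4 below, with a median of 0.015.

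**Figure D3:**
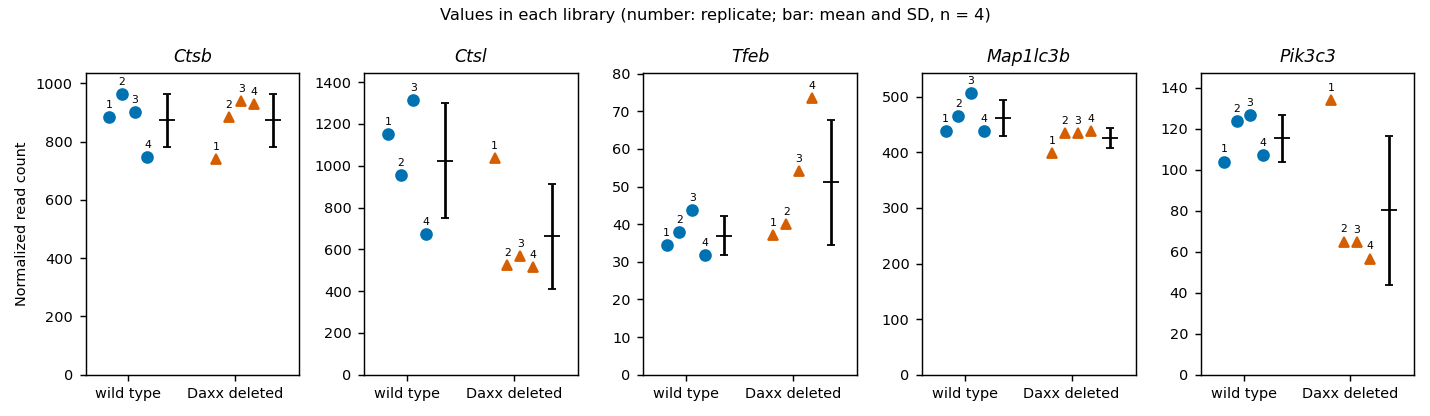
Normalized read counts of 5 genes in each library (numbers mark replicates), with the mean and SD of n = 4 beside them and axes from 0. Ctsb and Map1lc3b differ little, Daxx-deleted replicates 2 to 4 are low in Ctsl (515 to 568) and Pik3c3 (56.7 to 65.0) while replicate 1 is not, and Tfeb is highest in Daxx-deleted replicate 4 (73.5).

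The 6 glycosidases and lipid enzymes, whose loss causes lysosomal storage diseases, had log2 fold changes from -0.30 to 0.12. Gusb, which encodes beta-glucuronidase, varied least among them, with 267 to 287 in wild-type and 281 to 298 in Daxx-deleted libraries. Gla, the alpha-galactosidase gene on chromosome X, was among the least abundant members, at 30.8, 22.2, 17.5 and 25.7 in wild-type and 17.5, 15.0, 26.0 and 18.9 in Daxx-deleted libraries. Its interval of -0.88 to 0.28 was the widest of this group. Glb1, which encodes beta-galactosidase and shares exons with Tmppe, varied within both genotypes, 77.9 to 139.9 in wild type against 78.3 to 154 in Daxx-deleted pancreas. Acid alpha-glucosidase (Gaa), hexosaminidase A (Hexa) and palmitoyl-protein thioesterase (Ppt1) had log2 fold changes of -0.026, 0.12 and -0.020.

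Of the 4 cofactor and lipid carrier genes none passed the test. Psap had 655, 664, 642 and 576 in wild-type and 505, 636, 621 and 545 in Daxx-deleted libraries, with overlap (log2 fold change -0.14 ± 0.11 SE). The progranulin gene Grn, needed for lysosomal protease homeostasis, averaged 440.3 ± 35.8 in wild-type and 425 ± 21.9 in Daxx-deleted libraries. Npc2 and Npc1, which pass cholesterol out of the lysosome, had 121 ± 6.63 and 97.3 ± 16.2 in wild type against 116 ± 22.3 and 87.7 ± 6.54 in Daxx-deleted pancreas. All 4 genes were below 0 under the deposited scaling, with a median of -0.11. Signs this close to 0 depend on the scaling, since equal library totals moved the median of all genes from -0.0074 to 0.11.

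Lysosomal membrane genes showed the same overlap. Lamp1 was at 1399, 1148, 1197 and 1487 in wild-type libraries and 1199.5, 1226, 1149.8 and 1302 in Daxx-deleted libraries (log2 fold change -0.094 ± 0.11 SE). Lamp2, whose product is needed for autophagosome clearance in acinar cells, had 369, 241, 313 and 389.6 in wild-type and 322, 424, 217 and 287 in Daxx-deleted libraries. Daxx-deleted pancreas held both the highest and the lowest Lamp2 library, replicates 2 and 3. Scarb2, which carries glucocerebrosidase to the lysosome, was at 289, 269, 303 and 261 in wild type against 244, 212, 259 and 262 in Daxx-deleted pancreas. In Daxx-deleted pancreas 3 of 4 libraries were below the lowest wild-type library, and the difference had an unadjusted limma p of 0.11 and an exact permutation p of 0.0571. The tetraspanin gene Cd63 and the channel gene Mcoln1 had log2 fold changes of -0.034 and 0.18. Of the 5 membrane genes 1 was above 0 and 4 below, with a median of -0.089.

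Tfeb had the highest positive log2 fold change of the members. The gene (ENSMUSG00000023990.18, chromosome 17, 47737030 to 47792419, plus strand) measured 34.4, 37.8, 43.8 and 31.9 in wild-type replicates 1 to 4. In Daxx-deleted replicates 1 to 4 it was at 37.2, 40.0, 54.2 and 73.5, of which replicates 3 and 4 exceeded every wild-type library and the other 2 lay inside the wild-type range. This gave a log2 fold change of 0.42 ± 0.23 (SE), a 95% interval of -0.066 to 0.90, an unadjusted limma p of 0.0859 and an exact permutation p of 0.171. Without Daxx-deleted replicate 4 it was 0.23, so that library sets much of its size. The estimate rests on 29 to 70 reads per library. Beside it, the 14 members with CACGTG in a promoter had a median log2 fold change of -0.025, 6 of them above 0, and the 26 members with a promoter entry and no core had -0.040, 8 of them above 0. Enzymes reach the lysosome through mannose 6-phosphate tags, which the enzyme encoded by Gnptab starts and the receptor encoded by M6pr reads. Gnptab had 239.7, 210.0, 217 and 222 in wild-type and 226, 232, 223 and 258 in Daxx-deleted libraries, with a log2 fold change of 0.077 ± 0.11 (SE), and M6pr averaged 172 ± 48.7 in wild-type and 178 ± 21.5 in Daxx-deleted libraries.

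Of the proton pump that acidifies the lysosome, 4 subunit genes are members. Atp6v0d1 of the membrane sector had 218 ± 21.4 normalized counts in wild type against 227 ± 12.03 in Daxx-deleted pancreas. Atp6v1a, Atp6v1b2 and Atp6v1h of the cytosolic sector had log2 fold changes of 0.082, -0.068 and -0.016. A further 14 pump genes from a related list gave 13 tested genes, 5 above 0 and 8 below, and none passed limma's test. The lowest of these was Atp6v0c, which forms the proton-carrying ring, at 38.8, 67.8, 24.3 and 25.7 in wild-type and 15.5, 26.7, 21.9 and 9.45 in Daxx-deleted libraries, with a log2 fold change of -1.02 ± 0.36 (SE) and overlap between genotypes. Atp6v1f and Atp6v0e, next by unadjusted p, had -0.16 and -0.15.

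Autophagosome formation starts with the ULK1 kinase and the Beclin 1 lipid kinase complex. Ulk1 was at 278, 366, 322 and 241 in wild-type and 301, 249, 331 and 285 in Daxx-deleted libraries, and Becn1 had 201, 228, 238 and 241 in wild-type and 236, 222, 210.4 and 222 in Daxx-deleted libraries. Their log2 fold changes of -0.040 ± 0.14 and -0.025 ± 0.12 (SE) were within the spread of the libraries. Vmp1, a membrane protein that pancreatitis induces in acinar cells and an exon of which overlaps the gene of the microRNA Mir21a, had 256, 247, 253 and 292 in wild-type and 234, 284, 211 and 257 in Daxx-deleted libraries. The lipid-binding Wipi2 was at 373, 339, 349.6 and 315 in wild-type and 313, 279.9, 306 and 345 in Daxx-deleted libraries, with 3 of 4 Daxx-deleted libraries below the lowest wild-type library (log2 fold change -0.15 ± 0.11 SE, exact permutation p = 0.114). Wipi1 and Atg9a, the membrane scramblase of the forming vesicle, had -0.012 and 0.11. Of the 6 initiation genes 1 was above 0 and 5 below, and none passed the test.

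The conjugation enzymes attach Atg8 proteins to the autophagosome membrane. Atg5, loss of which in pancreas blocks this step, was at 65.2, 80.9, 70.1 and 69.9 in wild-type and 76.4, 77.5, 71.9 and 84.0 in Daxx-deleted libraries. Atg7, the activating enzyme, had 77.5, 88.7, 87.6 and 63.7 in wild-type and 74.3, 81.6, 56.2 and 94.5 in Daxx-deleted libraries. Both overlapped between genotypes, with log2 fold changes of 0.11 ± 0.15 and -0.062 ± 0.18 (SE). Atg3, the transfer enzyme, and Atg16l1, the scaffold of the Atg5 complex, had -0.17 and 0.024, so 2 of the 4 were above 0 and 2 below.

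All 5 Atg8 family genes, whose products coat the autophagosome and bind cargo receptors, had log2 fold changes below 0 under the deposited scaling. They ran from -0.26 to -0.11, and none passed the test. With equal library totals 4 of 5 were below 0 (Map1lc3b was at 0.0084), and all 5 were below the median of all genes under either scaling. Leaving out Daxx-deleted replicate 3 put Map1lc3a at 0.0039. Map1lc3b (ENSMUSG00000031812.16, chromosome 8, 121590361 to 121598760, plus strand) was at 438, 466, 506 and 438 in wild-type and 399, 434, 434 and 438 in Daxx-deleted libraries. The 4 and 4 values did not overlap (exact permutation p = 0.0286, the smallest possible), but the highest Daxx-deleted value, 437.8, fell just short of the lowest wild-type value, 437.96. Its log2 fold change was -0.11 ± 0.10 (SE), with an unadjusted limma p of 0.29.

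Gabarap had 633, 608, 580.4 and 741 in wild-type and 541, 644, 519.7 and 601 in Daxx-deleted libraries, with overlap. Gabarapl2 was at 112, 147, 127 and 138 in wild-type and 91.9, 85.8, 139.6 and 125 in Daxx-deleted libraries, and Daxx-deleted replicates 1 and 2 were below every wild-type library. Gabarapl1 had 169 ± 13.2 in wild type against 155 ± 15.2 in Daxx-deleted pancreas, and Map1lc3a had a log2 fold change of -0.12 ± 0.19 (SE). The shares of the family were not tested between genotypes, and their sizes depend on the merged exon lengths. Per length, Gabarap made up 57.0% ± 3.83 of the family in wild type against 57.0% ± 2.66 in Daxx-deleted pancreas, and Gabarapl1 made up 13.9% ± 1.51 and 14.0% ± 0.718. Map1lc3b, Map1lc3a and Gabarapl2 made up 10.1% ± 0.983, 9.69% ± 1.93 and 9.28% ± 1.13 in wild type, and 10.4% ± 0.629, 9.83% ± 1.55 and 8.73% ± 2.23 in Daxx-deleted pancreas. Whether reads match more than 1 family member was not examined, so their separate counts may be less certain than their sum.

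Autophagy receptors link ubiquitin-tagged cargo to Atg8 proteins, and the p62 protein encoded by Sqstm1 builds up when autophagy is blocked. Sqstm1 RNA was at 721, 835, 854 and 709 in wild-type and 731, 676, 722 and 798 in Daxx-deleted libraries (log2 fold change -0.089 ± 0.11 SE). RNA levels do not measure the amount of the protein or the flow through autophagy. Nbr1 had 1139, 1072, 1277 and 1187 in wild-type and 1182, 1139, 1003 and 1222 in Daxx-deleted libraries, again with overlap. Rab7, the small GTPase of autophagosome and late endosome fusion, was the steadiest member. It ran from 280.1 to 299 over all 8 libraries, a ratio of 1.07, with a log2 fold change of -0.031 ± 0.10 (SE).

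**Figure D4:**
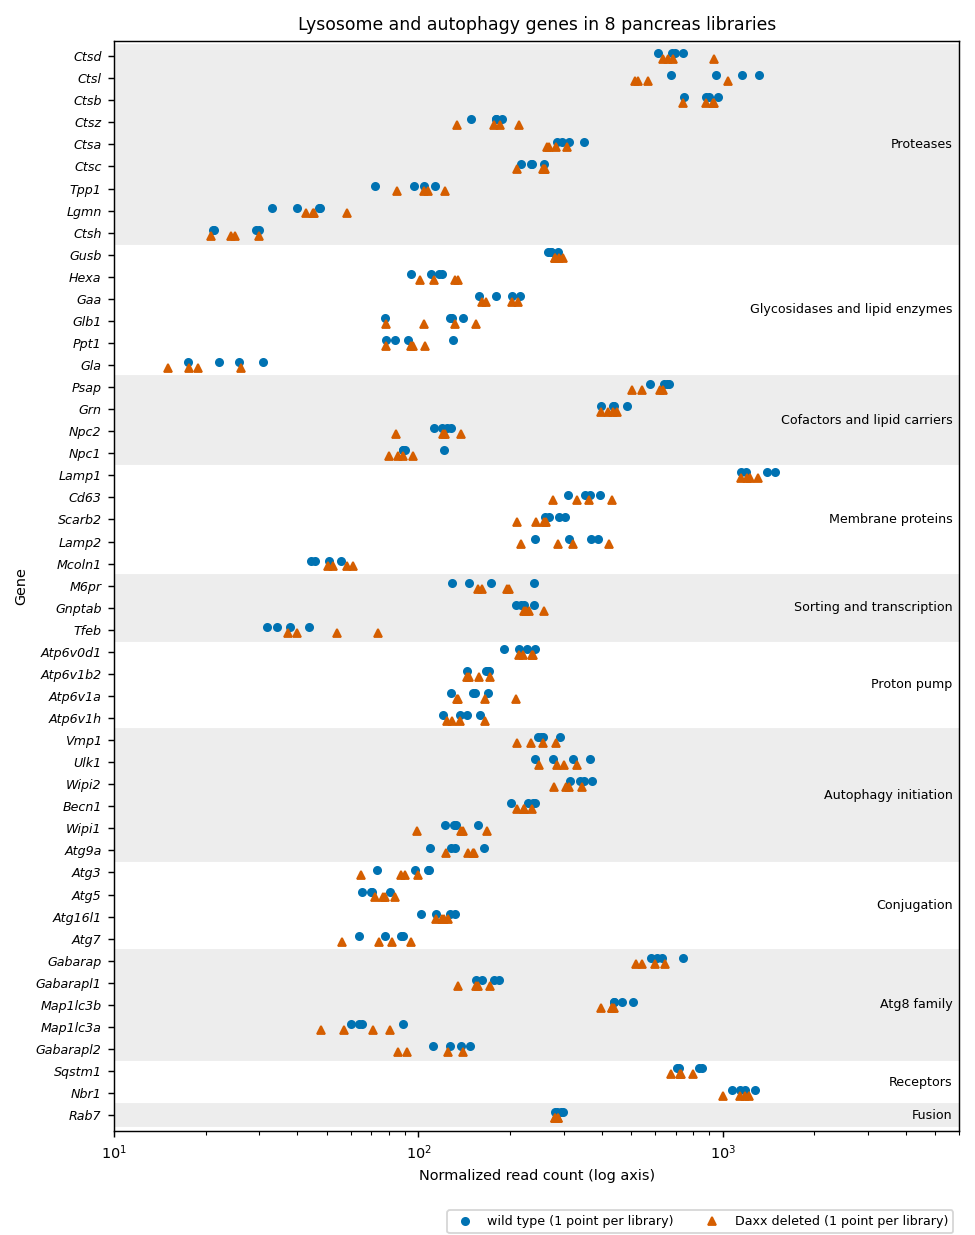
Normalized read counts (log axis) of the 49 genes in each of 8 libraries, grouped by role; circles are wild-type and triangles Daxx-deleted libraries. The genotypes overlap in 48 of 49 genes, and in Map1lc3b they nearly touch.

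Variation between animals was modest for most members. The ratio of the highest to the lowest library had a median of 1.43 over the members, against 1.73 over all tested genes, which were not matched to the members for abundance. It was under 1.5 for 28 members and above 2 for 3, which were Ctsl (2.55), Tfeb (2.31) and Gla (2.06). Daxx-deleted replicate 4 had the highest value of the 8 libraries in 15 members and the lowest in 1, and its median deviation from each member's median library was 0.08 log2 units. Daxx-deleted replicate 3 was the lowest library in 11 members and the highest in 1. Among wild-type libraries the highest value fell in 6, 8, 7 and 8 members for replicates 1 to 4, and the lowest in 4, 8, 4 and 5.

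**Figure D5:**
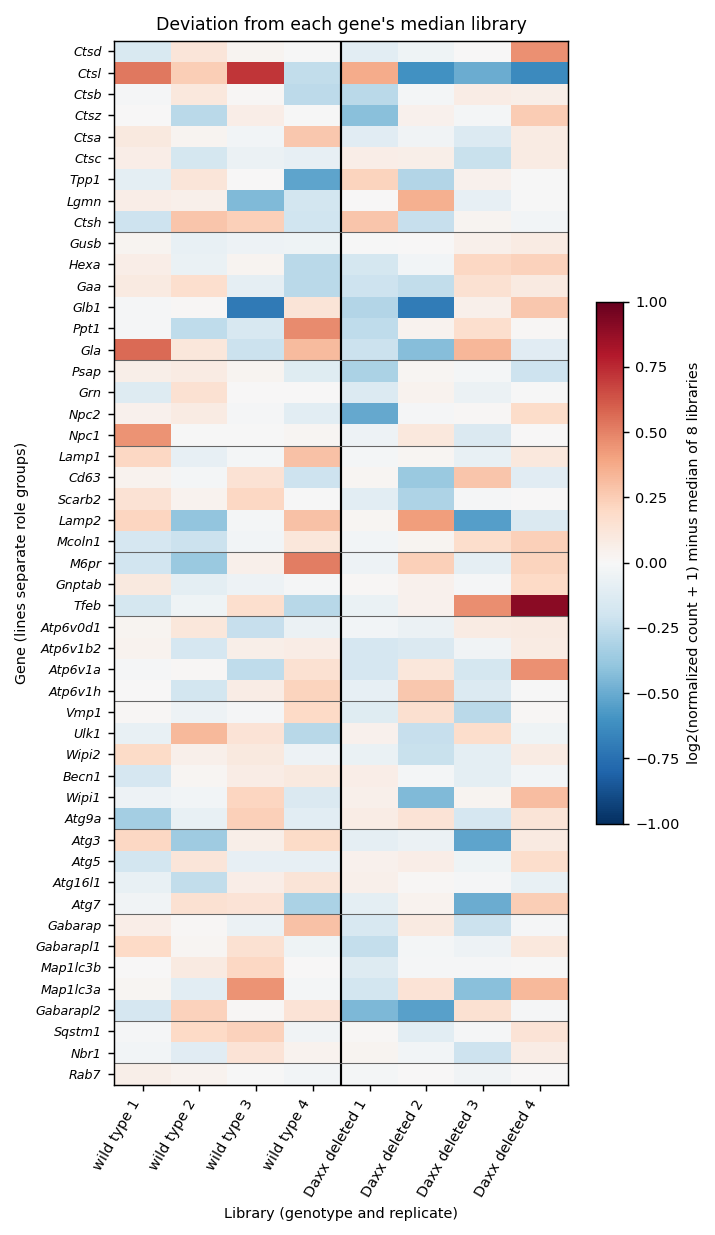
Deviation of each gene in each library from the gene's median library, in log2(normalized count + 1) units (colour, red above and blue below); columns are the 4 wild-type and 4 Daxx-deleted libraries and lines separate role groups. Ctsl is low in Daxx-deleted replicates 2 to 4, Tfeb is high in Daxx-deleted replicate 4, and Rab7 and Gusb are nearly even.

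Other genes of the same systems, from lists made by function, gave no call either. Of 42 further lysosomal genes 41 were tested, 19 above 0 and 22 below, with a median of -0.0089. The smallest unadjusted p was that of Man2b1, the lysosomal alpha-mannosidase gene, with 393, 356, 412 and 367 in wild-type and 251, 282, 303 and 319 in Daxx-deleted libraries, without overlap. Its log2 fold change was -0.41 ± 0.12 (SE), with an unadjusted limma p of 0.00315 and an adjusted p of 0.9997 over all genes. Slc17a5, which exports sialic acid, and Ids, of heparan sulfate breakdown, followed with -0.37 and -0.25. Groups did not overlap in 2 of the 41 genes, Man2b1 and Ids, both lower in Daxx-deleted pancreas, beside 1.04% of all tested genes in that direction.

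Of 48 further autophagy gene names 47 were listed and tested, 21 above 0 and 26 below, with a median of -0.0048. Pik3c3, the lipid kinase that works with Beclin 1, had the smallest unadjusted p. It was at 104, 124, 127 and 107 in wild-type and 134, 65.0, 64.6 and 56.7 in Daxx-deleted libraries. As in Ctsl, Daxx-deleted replicates 2 to 4 were below every wild-type library and replicate 1 was not. For Pik3c3 limma gave a log2 fold change of -0.61 ± 0.22 (SE), an unadjusted limma p of 0.0164 and an adjusted p of 0.9997. Without Daxx-deleted replicate 1 the Pik3c3 estimate was -0.88, with an adjusted p of 0.250. Without Daxx-deleted replicate 4 it was -0.47, with an unadjusted limma p of 0.0634. With equal library totals it was -0.48, with an unadjusted limma p of 0.0879. Atg4a, a protease that processes Atg8 proteins, and the kinase gene Ulk2 had -0.41 and -0.24. Groups did not overlap in 1 of the 47 genes, Ulk2, beside 1.04% of all tested genes in that direction. It had 87.2 to 103.6 in wild-type and 72.9 to 85.8 in Daxx-deleted libraries.

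The 31 nutrient-sensing genes gave 29 tested genes, 10 above 0 and 19 below, with a median of -0.049. Many of them, though not all, control autophagy through the mTORC1 kinase on the lysosome surface. Ddit4, a stress-induced inhibitor of mTORC1, had 103, 129, 266 and 93.0 in wild-type and 82.6, 88.3, 95.8 and 86.1 in Daxx-deleted libraries, with wild-type replicate 3 far above the others. Rraga, a GTPase that recruits mTORC1, averaged 82.7 ± 13.6 in wild-type and 60.6 ± 17.9 in Daxx-deleted libraries, and Sesn1, a leucine-sensing inhibitor, averaged 380.4 ± 142 in wild-type and 256 ± 113 in Daxx-deleted libraries. All of these overlapped between genotypes, and none passed limma's test over all genes.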

How the data were processed

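The 8 libraries were made from total RNA of flash-frozen pancreas, per the labels' protocols. The deposited table holds a signal per gene and library, and its values show that the authors scaled whole reads with 1 size factor for each library. STAR 2.6.0b, DESeq2 and the build GRCm38 are named in the submitters' processing notes, while the read counter, its strand setting and the gene filter are each not given in sources used here. Dividing by the step of each library gave whole reads for 100% of values (tolerance 0.001). Exon lengths and positions are from GENCODE M21 (GRCm38), where 11786 of 11789 gene IDs matched without version.

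Genes with a mean of at least 10 were tested (10468, with all 49 members; 1321 removed) on log2(value + 1) with limma 3.58.1 (R 4.3.3, trend option), genotype as the only term, two-sided, with Benjamini-Hochberg adjustment over all tested genes. Fold changes on this scale understate changes of low genes. Single values were also compared by exact permutation over 70 relabellings (smallest p 0.0286). Alternatives were other pseudocounts, filters and scalings, robust moderation, a Y-linked covariate (mean level of 4 Y-linked genes), edgeR 4.0.16 and DESeq2 1.42.0 on recovered reads, and each library left out. Members and lists were chosen with earlier results of these data known. Values in every library, or their range, are given for members with the smallest unadjusted p (8), without overlap, most abundant per length (6), most variable (5) or with a known role in pancreas, and related lists are named by their 3 smallest p. Replicates were numbered in accession order. The labels do not state that libraries are separate animals beyond the design text's 4 mice per genotype. Depth limits counting precision, and low genes such as Gla (17 to 35 reads) have wide intervals.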

Additional observations from a re-analysis of the deposited data

Results flagged for a closer look

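For each member and genotype, the 4 libraries were checked with Dixon's ratio (95% level) for a library that stood apart. Of 98 groups 6 had such a library, where chance, at about 1 in 20 groups, gives 4.9. In Daxx-deleted pancreas Ctsl stood at 1037 in replicate 1, above the other 3 (515 to 568). Ctsd stood at 939.6 in Daxx-deleted replicate 4, above 635 to 685. Ctsc was low in Daxx-deleted replicate 3, at 211, with the others at 257 to 261. Map1lc3b was low in Daxx-deleted replicate 1, at 399, against 434 to 438. In wild type, Npc1 was high in replicate 1, at 122, with the others at 88.6 to 90.3, and Atp6v1b2 was low in replicate 2, at 145, against 167 to 171.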

How the results depend on the processing

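No member was called under any of the 18 alternatives, and the smallest adjusted p of a named member in any of them was 0.383, for Ctsl without Daxx-deleted replicate 1. Over all genes the count called was 1 instead of 0 with equal library totals, robust moderation, the Y-linked covariate or DESeq2. Leaving out 1 library gave 0 called genes, or 1 without Daxx-deleted replicate 2. With equal library totals the members' median was 0.091 (all genes 0.11) and 37 of 49 were above 0. Leaving out 1 library gave 13 to 22 members above 0 and medians from -0.06 to -0.0027. The log2 ratio of Ctsb to Ctsl differed by 0.52 to 0.96 with 1 library left out, Ctsl by -0.89 to -0.52, Daxx by -0.82 to -0.64, and Tfeb by 0.23 to 0.55. The share of reads on the members was higher in Daxx-deleted libraries by 0.00498 percentage points, less than its SD. The difference was 6.46e-05 without Daxx-deleted replicate 2 and 0.00118 and 0.00124 without wild-type replicate 2 and Daxx-deleted replicate 1.

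Signs changed for 13 of 25 named members in some alternative, none of them passing the test. Equal library totals, which moved the median of all genes to 0.11, gave Atg7 0.059, Becn1 0.098, Ctsb 0.12, Glb1 0.097, Lamp1 0.028, Lamp2 0.034, Map1lc3b 0.0084, Nbr1 0.081, Rab7 0.091, Sqstm1 0.034, Ulk1 0.083 and Vmp1 0.030. Ctsb was at 0.00032 with TMM, 0.0077 with edgeR and 0.0044 with DESeq2. With 1 library left out the values ran from -0.075 to 0.076 for Ctsb, -0.21 to 0.15 for Glb1, -0.14 to 0.059 for Ulk1, -0.082 to 0.017 for Nbr1, -0.082 to 0.0051 for Becn1, -0.25 to 0.073 for Lamp2, -0.17 to 0.076 for Atg7 and -0.046 to 0.14 for Ctsd. The cause of these changes was not tested, other than the shift of all genes under equal totals. No paired analysis was possible because the library titles share no number across genotypes and the replicate numbers are only names. By the numbers in the titles, Daxx-deleted replicate 1 comes just before the wild-type libraries, and the other Daxx-deleted libraries come after them. What the title numbers stand for is not given, and the part of this order in the results was not tested. Daxx and 4 members with means under 50 have no value at a minimum mean of 50.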

Other observations

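Ctrc, the chymotrypsin C gene, is present at a high or a low level in these libraries, and its values are set beside those of Ctsl here after both were seen. Normalized counts of Ctrc were 68282, 4065, 73618 and 76266 in the wild-type libraries in order, and 57356, 2723, 3946 and 4297 in the Daxx-deleted ones. Daxx-deleted replicate 1, the library of its genotype with high Ctsl (1037) and Pik3c3 (134), was also its library with high Ctrc. In wild type this did not hold, since replicate 2, low in Ctrc, had 953 for Ctsl and 124 for Pik3c3. No test was made of this, nor of the order of the title numbers given above, in which Daxx-deleted replicate 1 is apart from the rest of its genotype.

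Per length, the make-up of the 9 lysosomal proteases was led by Ctsd in both genotypes, with 33.8% ± 3.09 in wild type against 37.3% ± 3.78 in Daxx-deleted pancreas. Ctsl made up 18.1% ± 4.00 and 12.5% ± 5.18, and Ctsb 16.7% ± 1.13 and 17.4% ± 1.92. These shares add to a fixed total, so a lower Ctsl raises the others, and their sizes depend on the merged exon lengths.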
